A study of Homo sapiens with 6 samples.

Results

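The AP-1 FOS and JUN family was described in SU-CCS-1. This established line of clear cell sarcoma, a soft tissue tumor, harbors the gene fusion of EWSR1 and ATF1, called EA1. The genes were taken by name, as the rows whose symbol was FOS, FOSB, FOSL1, FOSL2, JUN, JUNB or JUND. The family was chosen with earlier results of these data known. All 7 genes were found among the 18118 genes counted. Polyadenylated RNA was sequenced 48 h after transfection in 6 libraries of this line. In the control group, 2 libraries came from cells given a negative control siRNA. The labels list 2 different siRNAs against EA1, called EA1 siRNA 1 and EA1 siRNA 2 here, with 2 libraries each. All 3 groups therefore share the cell line and the fusion, and the control cells were transfected as well. Nothing says that replicates came from separate cultures, so p values measure the spread between libraries, which may be technical.

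AP-1 is a dimer of basic leucine zipper (bZIP) proteins. JUN proteins pair with each other or with FOS proteins, whereas FOS proteins need a partner such as a JUN protein to bind DNA. Several members are immediate early genes, whose short-lived transcripts rise within minutes of a growth factor or cAMP signal through MAP kinases, SRF with its partners, and CREB family factors. ATF1, the DNA-binding partner of the fusion, is itself a CREB family bZIP factor that binds cAMP response elements.

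The counts summed to between 5942808 and 7599305 per library, and 3 counts, taken as the smallest level told from 0, lay between 0.395 and 0.505 CPM, counts scaled to the total of their library. This floor covers counting error only. Levels are given as CPM normalized by edgeR's TMM method, and a positive log2FC stands for a higher level in control than with an EA1 siRNA. As a check of the labels, ATF1 was at 82.2 and 87.4 CPM in control, 21.2 and 20.3 after EA1 siRNA 1, and 21.7 and 22.3 after EA1 siRNA 2. EWSR1, the other gene of the fusion, was at 198 and 233 CPM in control, 195 and 203 after EA1 siRNA 1, and 221 and 198 after EA1 siRNA 2. It was called with neither siRNA (log2FC 0.11 and 0.04). Reads of either gene do not separate the fusion from the intact gene. Markers of the melanocyte lineage, which clear cell sarcoma shares, were present, and their summed level was 2750 to 3010 CPM in control, 8010 to 8110 after EA1 siRNA 1 and 7393 to 11989 after EA1 siRNA 2. With each EA1 siRNA 7 of 8 of these markers rose, beside 19.9% and 18.5% of all genes tested, and the exception was SOX10. MLANA had 4 and 0 raw counts in control and passed the filter on low counts only through the knockdown libraries. Of 6 fibroblast markers only 2 were among the genes counted, and both passed the filter. Their summed levels were 2.70 to 3.44, 8.89 to 11.9 and 12.9 to 23.0 CPM in the same order of groups. LUM rose with each EA1 siRNA, but would not have passed the filter on its control libraries alone (12 and 6 raw counts). Of 10 epithelial, immune and endothelial markers 3 were among the genes counted, and 1 passed the filter and was called with neither siRNA. Of 10 interferon response genes 9 were tested, of which 5 fell after EA1 siRNA 1 and 8 after EA1 siRNA 2, beside 20.3% and 18.2% of all genes tested. ISG15 would not have passed the filter on its knockdown libraries alone (11, 1, 2 and 3 raw counts). For MLANA, LUM and ISG15, presence among the genes tested is therefore not independent of their difference. The summed level of the interferon response genes was 266 to 374 CPM in control, 168 to 228 after EA1 siRNA 1 and 132 to 164 after EA1 siRNA 2. The part of these shifts in the family's values was not tested.

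Genome positions are those of GENCODE release 44 on hg38, and the counts were read over whole genes. JUN (chr1:58776845-58784048, minus strand), JUNB (chr19:12791486-12793315, plus strand) and JUND (chr19:18279694-18281622, minus strand) each have a canonical transcript of 1 exon. FOS (chr14:75278826-75282230, plus strand), FOSB (chr19:45467995-45475179, plus strand), FOSL1 (chr11:65892049-65900573, minus strand) and FOSL2 (chr2:28392448-28417317, plus strand) have 4 exons each. Exons of JUNB overlap those of HOOK2 on the other strand, and whether counting used strand is not given in the sources used here. HOOK2 lay between 5.09 and 8.25 CPM in all 6 libraries and was called with neither siRNA, while JUNB ranged from 16.2 to 44.6 CPM. FOSB and FOSL2 overlap other genes outside their exons.

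Since the fusion carries the DNA-binding domain of ATF1, the promoters of the family were searched for cAMP response elements. RefSeq entries on GRCh38.p14 were matched for 6 members, and FOSL1 is named only. The 250 bases before the RefSeq start are shown for FOS and JUN, which differed between the EA1 siRNAs, for FOSB, which rose after EA1 siRNA 1, and for JUND, which holds the full palindromic element. Capitals mark TGACGTCA, its core TGACG on either strand, or another match to TGANNTCA. FOS lies at chr14:75278578-75278827 on the plus strand, FOSB at chr19:45467746-45467995 on the plus strand, JUN at chr1:58784048-58784297 on the minus strand and JUND at chr19:18281623-18281872 on the minus strand.
FOS: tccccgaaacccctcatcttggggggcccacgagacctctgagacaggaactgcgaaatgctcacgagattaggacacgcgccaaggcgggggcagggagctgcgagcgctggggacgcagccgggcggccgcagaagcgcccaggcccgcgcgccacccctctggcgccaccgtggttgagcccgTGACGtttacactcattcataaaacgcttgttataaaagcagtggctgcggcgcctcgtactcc
FOSB: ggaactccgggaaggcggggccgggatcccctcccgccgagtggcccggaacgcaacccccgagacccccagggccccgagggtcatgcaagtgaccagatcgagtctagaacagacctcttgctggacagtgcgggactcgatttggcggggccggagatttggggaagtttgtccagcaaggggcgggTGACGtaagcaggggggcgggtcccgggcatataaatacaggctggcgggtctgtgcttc
JUN: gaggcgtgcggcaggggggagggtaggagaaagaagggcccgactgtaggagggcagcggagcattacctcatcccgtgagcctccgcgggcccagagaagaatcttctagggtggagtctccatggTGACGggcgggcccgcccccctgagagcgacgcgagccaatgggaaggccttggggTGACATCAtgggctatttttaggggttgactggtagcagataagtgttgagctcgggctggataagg
JUND: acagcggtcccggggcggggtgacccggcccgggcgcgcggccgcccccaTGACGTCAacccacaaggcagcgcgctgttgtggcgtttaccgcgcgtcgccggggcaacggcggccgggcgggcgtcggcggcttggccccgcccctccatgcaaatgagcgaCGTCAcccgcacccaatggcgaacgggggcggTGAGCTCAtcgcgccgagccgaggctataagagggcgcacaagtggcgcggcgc

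The core TGACG was present in the window of 6 of 6 members, and 21.2% of the 35116 promoters in the table hold it in a window of the same length. Positions are counted back from the start. In FOS it spanned bases -64 to -60 and in FOSB bases -60 to -56, so that both members carry it at nearly the same distance. In FOSL2 it was found at -66 to -62 and, on the other strand, at -201 to -197. JUNB held it at -137 to -133 and JUN at -123 to -119. The full element TGACGTCA, present in 1.65% of all promoters, was found in 1 member, JUND, at -200 to -193, and the core lies within it. JUND had a further core on the other strand at -86 to -82, and the letters TGAGCTCA at -54 to -47. JUN held the variant TGACATCA, present in 2.37% of all promoters, at -67 to -60. The looser pattern TGANNTCA, which includes the full element and this variant, was held by 2 members and by 10.1% of all promoters. The letters TGAGTCA, an AP-1 motif (4.2% of all promoters), TGATGATGA (0.248%) and the CArG box bound by SRF (1.16%) were not found in these 6 windows on either strand. Bases outside the windows were not searched, so a CArG box or TGAGTCA further from the start would have been missed. No other form of AP-1 site was searched for as such. A match describes letters in the window, and these data do not show binding.

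Compared on a scale of normalized CPM per kb of exon, the control cells held JUNB and JUND at the highest level, at 24.2 ± 0.24 (SD, n = 2) and 23.7 ± 0.86. FOS followed at 21.2 ± 0.49 and FOSL2 at 17.1 ± 1.20. FOSL1 was at 5.04 ± 0.28, JUN at 3.39 ± 0.53 and FOSB at 0.225 ± 0.024 CPM per kb. In control cells the family was thus represented mainly by JUNB, JUND, FOS and FOSL2, whereas FOSB had 9 raw counts in each control library. JUNB and JUND were the neighbours in this order whose control libraries overlapped, and they also overlapped after EA1 siRNA 1. The order there was JUND at 19.6 ± 6.45, JUNB at 14.02 ± 1.69, FOS at 9.71 ± 1.04, FOSL2 at 7.45 ± 0.98, JUN at 4.85 ± 2.08, FOSB at 1.06 ± 0.091 and FOSL1 at 0.50 ± 0.28 CPM per kb, so that FOSL1 lay below both JUN and FOSB. These orders depend on the length used, which counts all bases annotated as exon in any transcript of the gene. Without scaling by length, the control means were 123 CPM for FOSL2, 67.6 for FOS, 45.6 for JUND and 44.3 for JUNB.

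**Figure D1:**
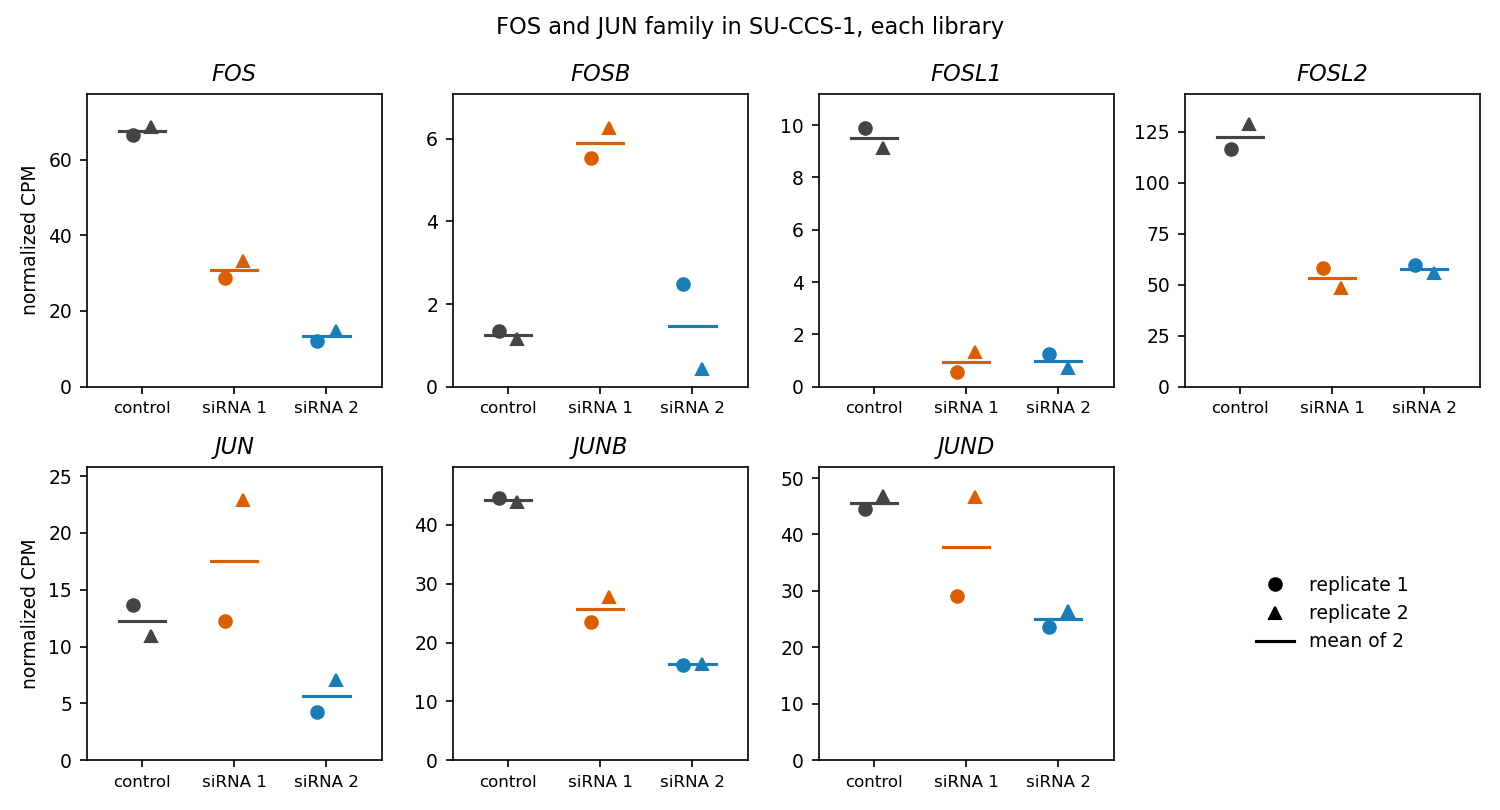
Normalized CPM (y axis, from 0, with a scale of its own in each panel) of each family member in the 2 control, 2 EA1 siRNA 1 and 2 EA1 siRNA 2 libraries; circles are replicate 1, triangles replicate 2 and lines the mean of both. FOS, FOSL1, FOSL2 and JUNB lie higher in both control libraries than in all 4 knockdown libraries, whereas FOSB is highest after EA1 siRNA 1.

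To ask how the family responds to the siRNAs against EA1, control was compared with each of them. Of the 7 members, 4 fell after EA1 siRNA 1 (FOS, FOSL1, FOSL2 and JUNB), 1 rose (FOSB) and 2 passed the test in neither direction (JUN and JUND). After EA1 siRNA 2, 6 members fell, and FOSB was not called. Of all 14571 genes tested, 40.1% were called by edgeR's quasi-likelihood test, Benjamini-Hochberg adjusted, after EA1 siRNA 1, with 20.3% lower in knockdown and 19.9% higher. For EA1 siRNA 2 the share was 36.7%, with 18.2% lower in knockdown and 18.5% higher. The median log2FC over all genes tested was -0.02 and -0.00014. Both comparisons use the same control libraries. FOSL1 passed the filter on low counts only through its control libraries and FOSB through those of EA1 siRNA 1 (with 1 of EA1 siRNA 2), so their presence among the genes tested is not independent of their difference. Because bulk RNA was sequenced, fewer cells with a transcript and less transcript per cell cannot be told apart.

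FOSL1, which encodes FRA-1, showed the largest fold of the members. It was at 9.88 and 9.13 CPM in control, 0.569 and 1.32 after EA1 siRNA 1, and 1.25 and 0.702 after EA1 siRNA 2. The control libraries held 66 and 71 raw counts, and the 4 knockdown libraries between 4 and 8. Every knockdown library thus lay far below both control libraries, and close to the floor. The level was 10.1-fold lower after EA1 siRNA 1 (log2FC 3.34, 95% interval 2.32 to 4.36) and 9.83-fold lower after EA1 siRNA 2 (3.30, 2.27 to 4.32). Between both EA1 siRNAs the log2 difference was 0.04, with an interval of -1.32 to 1.41, so that no difference within these bounds was detectable at this depth.

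FOSL2, which encodes FRA-2, was at 116 and 129 CPM in control, 58.3 and 48.4 after EA1 siRNA 1, and 59.8 and 55.5 after EA1 siRNA 2. The control group stood apart from both knockdown groups, whose libraries overlapped. FOSL2 fell after EA1 siRNA 1 (log2FC 1.20 ± 0.12 SE, adjusted p = 1.52e-05 by edgeR's quasi-likelihood test, Benjamini-Hochberg adjusted) and after EA1 siRNA 2 (1.09 ± 0.12, adjusted p = 3.75e-05). The log2 difference between the siRNAs was 0.11, with an interval of -0.17 to 0.38, the narrowest of the 7 members.

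FOS encodes the prototype partner of JUN and is a classic target of CREB. Its level was 66.5 and 68.7 CPM in control, 28.6 and 33.3 after EA1 siRNA 1, and 12.1 and 14.6 after EA1 siRNA 2. The groups did not overlap, and the libraries of EA1 siRNA 2 were the lowest. FOS fell 2.19-fold after EA1 siRNA 1 (95% interval of the log2FC 0.82 to 1.44) and 5.03-fold after EA1 siRNA 2 (1.99 to 2.67). The difference between the siRNAs was itself called, and after EA1 siRNA 2 FOS was 2.30-fold lower than after EA1 siRNA 1. That call rests on EA1 siRNA 1 replicate 2, without which the log2 difference was -1.09 with an adjusted p of 0.0785 by edgeR's quasi-likelihood test.

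FOSB, the remaining FOS family gene, was at 1.35 and 1.16 CPM in control, 5.55 and 6.26 after EA1 siRNA 1, and 2.49 and 0.421 after EA1 siRNA 2. Raw counts were 9 and 9, 39 and 38, and 14 and 3 in the same order. Both EA1 siRNA 1 libraries lay above the other 4, while the EA1 siRNA 2 libraries fell on both sides of control and 1 of them was at the floor. FOSB was 4.67-fold higher after EA1 siRNA 1 than in control (log2FC -2.22 ± 0.60 SE, adjusted p = 0.0110 by edgeR's quasi-likelihood test, Benjamini-Hochberg adjusted). For EA1 siRNA 2 the log2FC was -0.14, with an interval of -1.68 to 1.40. The call after EA1 siRNA 1 was lost when control replicate 2 (adjusted p = 0.0663 by the same edgeR test), EA1 siRNA 1 replicate 1 (0.0507) or EA1 siRNA 1 replicate 2 (0.0701) was left out, and the log2FC after EA1 siRNA 2 turned to 1.55 without EA1 siRNA 2 replicate 1.

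Among the JUN genes, JUNB, which often opposes JUN in growth control, was at 44.6 and 44.0 CPM in control, 23.5 and 27.8 after EA1 siRNA 1, and 16.2 and 16.4 after EA1 siRNA 2. The groups did not overlap and followed the same order as those of FOS. JUNB fell 1.73-fold after EA1 siRNA 1 (log2FC interval 0.46 to 1.12) and 2.71-fold after EA1 siRNA 2 (1.10 to 1.78). The log2 difference between the siRNAs, -0.65 ± 0.16 SE, did not pass the threshold in edgeR's quasi-likelihood test, Benjamini-Hochberg adjusted (adjusted p = 0.0662), and its 95% interval was -1.01 to -0.29.

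JUND, the member least dependent on growth signals, was at 44.5 and 46.8 CPM in control, 29.0 and 46.6 after EA1 siRNA 1, and 23.7 and 26.4 after EA1 siRNA 2. Replicate 1 of EA1 siRNA 1 lay below control and replicate 2 within its range, while both EA1 siRNA 2 libraries were lower than the other 4. JUND fell 1.82-fold after EA1 siRNA 2 (log2FC 0.86 ± 0.20 SE, adjusted p = 0.00552 by edgeR's quasi-likelihood test, Benjamini-Hochberg adjusted). The log2FC for EA1 siRNA 1 was 0.28, with an interval of -0.14 to 0.70 (adjusted p = 0.280). The latter value depends on which library is kept, and was -0.032 without EA1 siRNA 1 replicate 1 and 0.67, with an adjusted p of 0.0226 by edgeR, without EA1 siRNA 1 replicate 2.

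JUN itself was at 13.6 and 10.9 CPM in control, 12.2 and 22.9 after EA1 siRNA 1, and 4.27 and 7.02 after EA1 siRNA 2. The EA1 siRNA 1 libraries overlapped control and spread widely, whereas the EA1 siRNA 2 libraries were below all others. JUN was 2.13-fold lower after EA1 siRNA 2 than in control (log2FC 1.09 ± 0.35 SE, adjusted p = 0.0282 by edgeR's quasi-likelihood test, Benjamini-Hochberg adjusted). The log2FC for EA1 siRNA 1 was -0.51, with an interval of -1.19 to 0.17 and an adjusted p of 0.215 by edgeR. Without control replicate 1 or EA1 siRNA 2 replicate 1 the fall was no longer called (adjusted p = 0.130 and 0.0967 by edgeR), and without EA1 siRNA 1 replicate 2 the log2FC after EA1 siRNA 1 was 0.023.

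**Figure D2:**
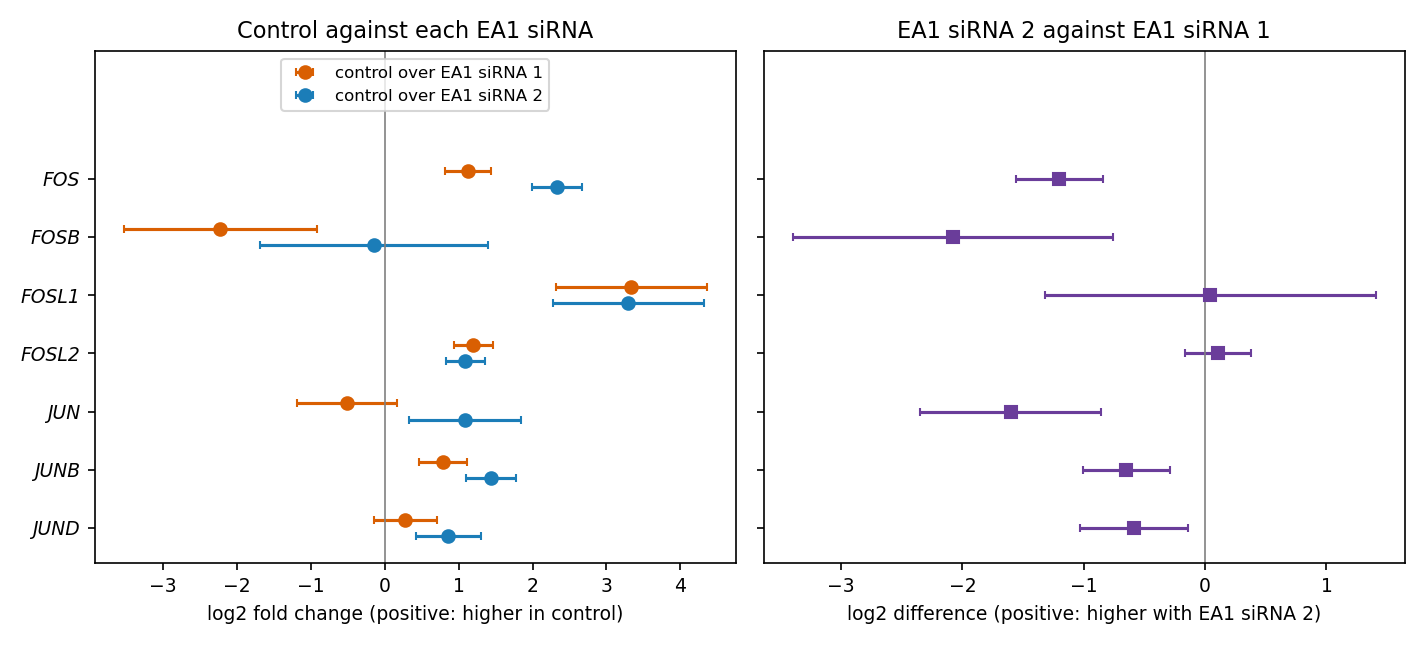
Left, log2FC of control over EA1 siRNA 1 (orange) and over EA1 siRNA 2 (blue) for each member; right, log2 difference of EA1 siRNA 2 over EA1 siRNA 1. Bars are 95% intervals from edgeR's fit, and the intervals of FOS and JUN on the right, like those of FOSB, JUNB and JUND, lie below 0, with only FOS and JUN called after adjustment.

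The EA1 siRNAs were then compared with each other, since both aim at the same fusion. Only 2.24% of all genes tested were called in this comparison, and 0.796% were called lower after EA1 siRNA 2. Of the 7 members, 2 were called lower after EA1 siRNA 2, FOS and JUN, while DESeq2 called 1, FOS. No member was higher after EA1 siRNA 2 at an adjusted or an unadjusted p under 0.05 by edgeR, or at an adjusted p by DESeq2. JUN was 3.04-fold lower after EA1 siRNA 2 than after EA1 siRNA 1 (log2 difference -1.60 ± 0.34 SE, adjusted p = 0.0357 by edgeR's quasi-likelihood test, Benjamini-Hochberg adjusted). FOSB, at a log2 difference of -2.08 with an interval of -3.40 to -0.76, and JUND, at -0.58 with an interval of -1.03 to -0.14, did not pass the threshold (adjusted p = 0.102 and 0.170 by the same edgeR test). ATF1 itself was not called between the siRNAs, with a log2 difference of 0.09. The call of JUN was lost without control replicate 1 (adjusted p = 0.0533 by edgeR), without EA1 siRNA 1 replicate 2 (0.370) and in a fit of only the 4 knockdown libraries (0.0597), and DESeq2 gave it no adjusted p.

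Replicates of EA1 siRNA 1 differed for some members. In replicate 2 the level was higher than in replicate 1 for 6 of 7 members, with FOSL2 as the exception. Raw counts in replicates 1 and 2 were 201 and 202 for FOS, 39 and 38 for FOSB, and 4 and 8 for FOSL1. The share of all genes higher in replicate 2 was not computed, so these counts of members are not read as a trait of the family. In control 3 of 7 members were higher in replicate 2, and after EA1 siRNA 2 4 of 7. JUN (12.2 against 22.9 CPM) and JUND (29.0 against 46.6 CPM) showed the widest gaps of the members with over 10 CPM, and the cause was not tested.

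Summed over the family on the scale of normalized CPM per kb of exon, the level was 94.8 ± 1.47 (SD, n = 2) in control, 57.2 ± 10.6 after EA1 siRNA 1 and 36.5 ± 1.28 after EA1 siRNA 2. The FOS genes made up 45.9 ± 0.74% of this sum in control, 33.2 ± 5.43% after EA1 siRNA 1 and 35.7 ± 2.19% after EA1 siRNA 2. Both control libraries (45.4% and 46.5%) therefore lay above all 4 knockdown libraries (29.4% to 37.3%), as a description with 2 libraries a group and no test. Without scaling by length the order of the groups was the same, at 66.3%, 53.4% and 61.0% in the same groups.

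Individual members shifted within the sum. The share of JUNB differed little between groups, at 25.5 ± 0.65% in control, 24.7 ± 1.64% after EA1 siRNA 1 and 24.5 ± 0.62% after EA1 siRNA 2. JUND made up 24.9 ± 0.52% in control, 33.8 ± 4.98% after EA1 siRNA 1 and 35.6 ± 1.49% after EA1 siRNA 2, the largest share of any member in both knockdown groups. The share of FOS was 22.4 ± 0.17% in control, 17.1 ± 1.37% after EA1 siRNA 1 and 11.5 ± 1.12% after EA1 siRNA 2. A larger share of JUND does not mean a higher level, since its level was 23.7, 19.6 ± 6.45 and 13.0 ± 1.00 CPM per kb in these groups. FOSL1 made up 5.31% of the sum in control and 0.843% and 1.43% in the knockdown groups. In the order of levels after EA1 siRNA 2, JUND was followed by JUNB at 8.91 ± 0.087 and FOSL2 at 8.05 ± 0.43 CPM per kb, and FOS, at 4.19 ± 0.55, came after FOSL2. FOSL1 and FOSB were lowest, at 0.516 ± 0.20 and 0.262 ± 0.26, and were the neighbours whose libraries overlapped.

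**Figure D3:**
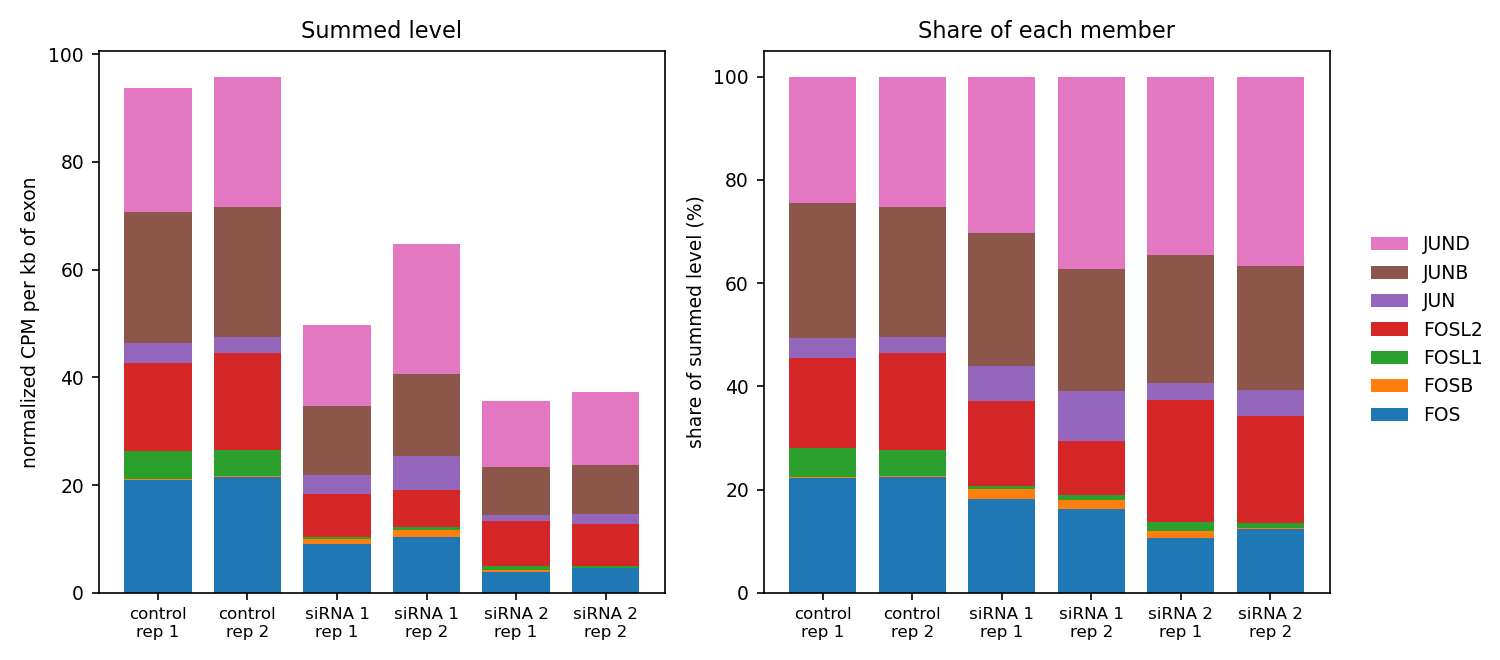
Left, normalized CPM per kb of exon of the 7 members stacked in each library, bars starting at 0; right, each member's share of that sum in percent. The sum is highest in both control libraries, and the share of JUND is larger in the knockdown libraries (30.3% to 37.3%) than in control (24.6% and 25.3%).

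The genes whose log2 levels followed each member most closely over the 6 libraries, after centring, were found by the root mean square distance. For FOS these were MAML3 (distance 0.080) and PARP9 (0.169). For FOSL1 they were KIF25 (0.180) and BMP2 (0.247), and for FOSL2 TRAP1 (0.058) and IL1RAP (0.074). JUNB was closest to PTPN3 (0.080) and CDC42EP3 (0.080), and JUND to STAG1-DT (0.038) and CACHD1 (0.096). FOSB (FZD9 at 0.443 and PCDH11X at 0.470) and JUN (RHOB at 0.253 and CRIP2 at 0.257) had no gene as close. Some of these genes were low, with STAG1-DT between 1.07 and 2.31 CPM and PTPN3 between 0.712 and 2.44. KIF25 was at 0.142 CPM in EA1 siRNA 1 replicate 1 and 0.140 in EA1 siRNA 2 replicate 2, below the floor. FZD9 and PCDH11X also lay below it in some libraries. Counting error at such levels was not set against the distances, which describe 6 libraries in 3 groups.

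The pathway around AP-1 was described by 6 lists, for which a count is read beside the share of all genes tested given above. Among the partners of the bZIP class, 11 of 17 listed genes were tested. After EA1 siRNA 1, 3 fell and 5 rose, and after EA1 siRNA 2, 3 fell and 3 rose. The small MAF protein gene MAFK, at 118 and 111 CPM in control, was at 13.7 and 13.5 after EA1 siRNA 1 and at 17.8 and 16.4 after EA1 siRNA 2 (log2FC 3.07 ± 0.13 and 2.74 ± 0.13 SE). MAF (log2FC -2.07 and -2.13), which encodes a large MAF protein, rose with each siRNA, so members of the MAF family changed in opposite directions. NFE2L2, which encodes NRF2, fell (0.72 and 0.65).

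Of the upstream MAP kinase cascade, 23 of 24 genes were tested. After EA1 siRNA 1, 2 fell and 5 rose, and after EA1 siRNA 2, 2 fell and 7 rose. MAP2K5, the kinase of ERK5, rose (log2FC -1.03 and -1.02), as did MAP2K6 (-0.54 and -0.90) and the RSK gene RPS6KA2 (-0.37 and -1.23), whereas RPS6KA1 fell (0.87 and 1.08). All 10 activators of the FOS and JUN promoters were tested. After EA1 siRNA 1, 3 of them rose and the others were not called, and after EA1 siRNA 2, 1 fell (ELK1, log2FC 0.40) and 4 rose. CREB1, the closest paralog of ATF1 on the list, rose from 40.9 and 46.0 CPM in control to 110 and 110 after EA1 siRNA 1 and 104 and 107 after EA1 siRNA 2 (log2FC -1.34 and -1.28). MEF2C (-0.68 and -0.67) and MEF2D (-0.50 and -0.41), which act on the JUN promoter, rose as well, and SRF was called with neither (-0.02 and 0.07). The call of RPS6KA2 after EA1 siRNA 1 was lost without control replicate 2 (adjusted p = 0.162 by edgeR) and without EA1 siRNA 1 replicate 1 or 2 (0.0608 and 0.0816). That of MEF2D was lost for EA1 siRNA 1 without either control library or EA1 siRNA 1 replicate 1 (adjusted p from 0.0553 to 0.0964 by edgeR), and for EA1 siRNA 2 without either control library, EA1 siRNA 2 replicate 1 or EA1 siRNA 1 replicate 2 (0.0523 to 0.281).

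Of factors that set the lifetime of FOS and JUN transcripts and proteins, 12 of 12 were tested. The test found 5 that fell and 3 that rose after EA1 siRNA 1, and after EA1 siRNA 2, 5 fell and 1 rose. ELAVL1, which encodes the mRNA-stabilizing protein HuR, fell (log2FC 1.77 and 1.33), as did FBXW7, which marks JUN protein for degradation (1.28 and 0.83), and ZFP36, which promotes decay of AU-rich mRNAs (0.82 and 1.84). ZFP36L2, of the same decay family, rose (-1.10 and -0.52). The fall of ZFP36 after EA1 siRNA 1 was not called without control replicate 1 or EA1 siRNA 1 replicate 2 (adjusted p = 0.185 and 0.207 by edgeR) or by DESeq2 (0.103).

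Of 24 genes known as AP-1 targets, 13 were tested, and the rest, which include the matrix metalloproteinase genes listed, were not tested. Of the 13, 9 fell and 2 rose after EA1 siRNA 1, and after EA1 siRNA 2, 10 fell and 2 rose, with a median log2FC of 0.66 and 0.83 beside the near-0 median of all genes tested. CCND1, which encodes cyclin D1, was at 1305 and 1379 CPM in control, 98.3 and 96.3 after EA1 siRNA 1, and 99.5 and 206 after EA1 siRNA 2 (log2FC 3.79 ± 0.26 and 3.13 ± 0.25 SE). The cytokine gene LIF fell (3.90 and 4.10), and so did HBEGF, an EGF family ligand (3.37 and 2.66). PLAUR, the urokinase receptor gene, had 22 and 41 raw counts in control and 0 to 2 in the knockdown libraries, and IL6 had 10 and 16 in control and 0 or 1. LIF, PLAUR and IL6 passed the filter on low counts only through the control libraries. Their presence among the 13 is therefore not independent of their fall, and the counts that fell and both medians include them. The call of IL6 was lost after EA1 siRNA 1 without replicate 1 or 2 of that siRNA (adjusted p = 0.113 and 0.0887 by edgeR) or by DESeq2 (0.0816), and after EA1 siRNA 2 without its replicate 2 (0.0783). CD44 (-1.22 and -1.41) and EMP1 (-1.75 and -1.47) were the 2 that rose.

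Of 12 other immediate early genes, 11 were tested. After EA1 siRNA 1, 7 fell and 2 rose, and after EA1 siRNA 2, 8 fell and 1 rose, with a median log2FC of 0.92 and 1.55. The nuclear receptor gene NR4A2 was at 79.8 and 65.2 CPM in control, 4.69 and 4.78 after EA1 siRNA 1, and 1.78 and 5.05 after EA1 siRNA 2 (log2FC 3.93 and 4.34). NR4A3 (1.99 and 1.63), the phosphatase gene DUSP1 (1.41 and 2.16) and KLF4 (1.11 and 2.29) fell as well. EGR1, an immediate early zinc finger gene often induced together with FOS, was highest in the libraries where FOSB was, at 3.14 and 2.06 CPM in control, 13.5 and 13.8 after EA1 siRNA 1, and 5.52 and 3.93 after EA1 siRNA 2. EGR1 rose after EA1 siRNA 1 (log2FC -2.40 ± 0.33 SE), and after EA1 siRNA 2 its log2FC was -0.86 (adjusted p = 0.0827 by edgeR's quasi-likelihood test, Benjamini-Hochberg adjusted). KLF6 rose with both (-1.07 and -0.63).

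**Figure D4:**
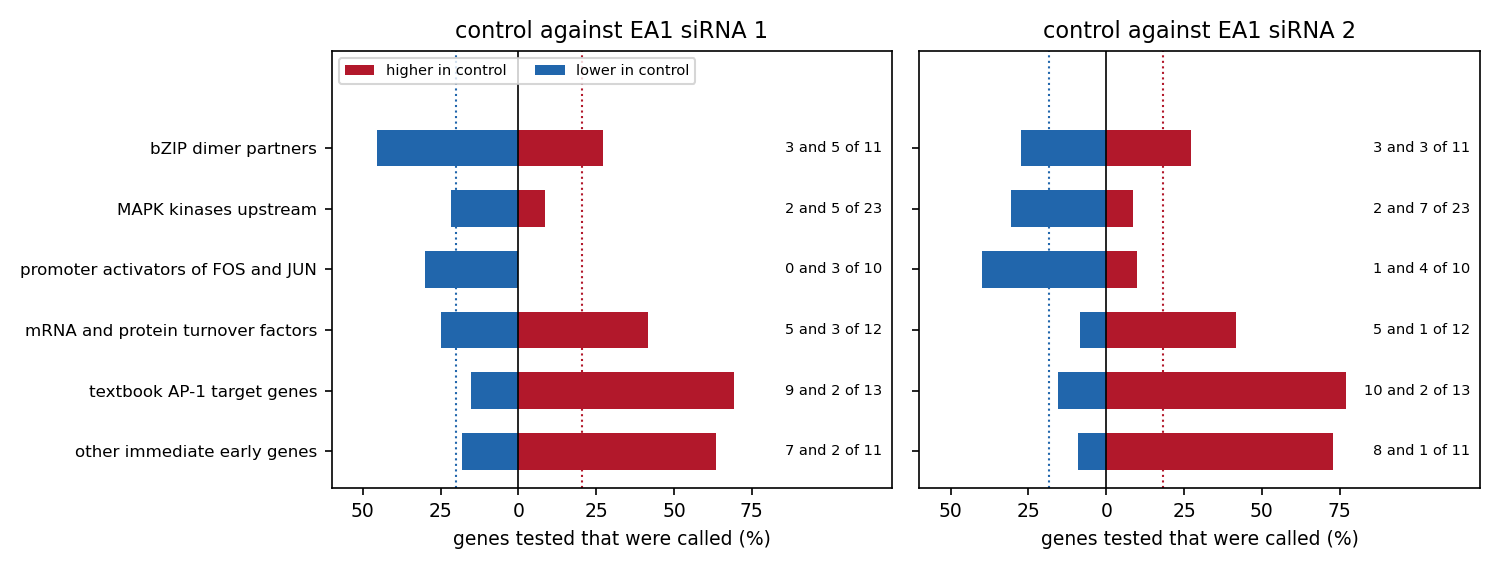
Percent of the tested genes of each list that were called higher in control (red, to the right) or lower in control (blue, to the left), for EA1 siRNA 1 and EA1 siRNA 2; numbers give the counts higher and lower of those tested, and dotted lines the percent of all genes tested. Most tested AP-1 targets and other immediate early genes were higher in control.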

How the data were processed

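The counts were deposited by the authors as raw counts per gene. Reads had been mapped with BWA-MEM to hg38 and assigned by featureCounts (1.6.3 in the submitters' processing notes). The annotation, the strand setting and any filter on low counts are not given in the sources used here. The methods name 1 siRNA against EA1, whereas the labels list 2. GENCODE release 44 held 18063 of the 18118 genes, and 2589 genes had no symbol.

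Low genes were removed by filterByExpr of edgeR 4.0.16 (R 4.3.3; minimum count 10, minimum total 15), leaving 14571. After TMM normalization, a quasi-likelihood test was fitted to all 6 libraries as 3 groups. Genes with a Benjamini-Hochberg adjusted p under 0.05 over all genes tested were called. The common BCV, the spread between replicates, was 0.109. Standard errors came from the F statistic, intervals are 95%, and the prior count was 2. Fits were tested on simulated data for the comparisons with control only. The simulation gave all genes the same spread and changed no genes of low level. It therefore does not cover the comparison between the siRNAs or genes as low as FOSB.

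The members, lists and tests were chosen with earlier results of these data known. Named genes are the members, the targeted genes, up to 4 genes of each list called with both siRNAs by largest mean log2FC, genes called between the siRNAs, those needed for a count of 5 or fewer, and the 2 nearest genes of each member. HBEGF and SRF were named after their values were seen, and some listed genes are not reported here. Alternatives were other filters, RLE size factors, library totals, DESeq2 1.42.0, the replicate number as a block, only the 4 libraries compared and each library left out.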

Additional observations from a re-analysis of the deposited data

Results flagged for a closer look

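The effects of the 2 EA1 siRNAs differed from each other in 6 of the genes named, each by edgeR's quasi-likelihood test of EA1 siRNA 2 against EA1 siRNA 1, Benjamini-Hochberg adjusted over 14571 genes. Over all genes tested, 2.24% were called in this comparison. EGR1 was named because of this call, so the number 6 depends in part on how genes were named. FOS was lower after EA1 siRNA 2 by a log2 difference of -1.20 (adjusted p = 0.00478 by edgeR), in 2 of 2 libraries below both of EA1 siRNA 1, and JUN by -1.60 (adjusted p = 0.0357 by edgeR), likewise in 2 of 2. KLF4 (-1.18, adjusted p = 0.0247 by edgeR), EGR1 (-1.54, 0.0268) and ZFP36L2 (-0.57, 0.0177) were also lower after EA1 siRNA 2. RPS6KA2 was higher after EA1 siRNA 2, by 0.86 (adjusted p = 0.00202 by edgeR), and rose against control with each siRNA. Without EA1 siRNA 1 replicate 2 the adjusted p by edgeR was 0.0785 for FOS, 0.370 for JUN, 0.275 for KLF4, 0.248 for EGR1 and 0.205 for ZFP36L2. Without EA1 siRNA 1 replicate 1 it was 0.0508 for KLF4, 0.141 for EGR1 and 0.109 for ZFP36L2, and without control replicate 1 it was 0.0533 for JUN. KLF4 was also not called with only the 4 libraries compared (adjusted p = 0.0534 by edgeR) or by DESeq2 (0.0521), and JUN was not called with only these 4 libraries (0.0597). ATF1 was not called between the siRNAs, at 0.09. The cause of these differences was not tested. Groups of 2 libraries are too small to examine for a single deviating library.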

How the results depend on the processing

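Of the members' results under the alternatives, 241 kept their direction and side of the threshold, 9 lost the call, 4 gained it and 8 changed sign. For other named genes the numbers were 679 kept and 26 lost. The falls of FOS, FOSL1, FOSL2 and JUNB with each siRNA were called under every alternative in which these genes were tested. At least 10 counts in every library removed FOSB and FOSL1 from the test, leaving 0 members called higher after EA1 siRNA 1. Leaving out 1 library gave 0 to 1 such members. The log2FC of FOSB after EA1 siRNA 1 then ranged from -2.33 to -2.08 (adjusted p 8.49e-04 to 0.0701 by edgeR), that of JUN from -0.90 to 0.023 and that of JUND from -0.032 to 0.67. With EA1 siRNA 2 these ranges were -0.96 to 1.55 for FOSB and 0.82 to 1.55 for JUN. The log2 differences between the siRNAs ranged from -1.36 to -1.07 for FOS, -3.75 to -1.25 for FOSB, -0.46 to 0.72 for FOSL1, -0.022 to 0.25 for FOSL2 and -2.03 to -1.10 for JUN, with 0 to 3 members called lower after EA1 siRNA 2. This number was 1 with only the 4 libraries compared (JUN at -1.61, adjusted p = 0.0597 by edgeR) and 1 with DESeq2. FOSL1 between the siRNAs was -0.0089 with library totals. Pathway genes called higher after EA1 siRNA 1 numbered 13 to 20 over the libraries left out. Over all genes, 33 to 788 were called between the siRNAs when 1 library was left out and 176 with only 4 libraries, against 326. The share of FOS genes without length scaling was 66.3%, 53.4% and 61.0%. Except where a library left out makes the difference, the cause was not tested. Low counts limit FOSB and FOSL1.

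Replicates share a number but no stated culture or day. Deviations of same-numbered libraries from their group means had a correlation of 0.130 (control, EA1 siRNA 1), 0.199 (control, EA1 siRNA 2) and 0.144 (the siRNAs). With the replicate number as a block, the members called against control were unchanged in number (4 lower and 1 higher after EA1 siRNA 1, 6 lower after EA1 siRNA 2). Between the siRNAs the block gave 4 members called lower after EA1 siRNA 2, adding FOSB (-2.14, adjusted p = 0.0404 by edgeR) and JUNB (-0.65, 0.0299), and 853 genes in all.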
